A study of Homo sapiens with 10 samples.

Results

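The let-7 family is represented on the array by 9 of the 1080 named human mature microRNA (miRNA) probe sets: let-7a, let-7b, let-7c, let-7d, let-7e, let-7f, let-7g, let-7i and miR-98, each the mature 5p strand. In the files the probe sets are named hsa-let-7a_st, hsa-let-7b_st, hsa-let-7c_st, hsa-let-7d_st, hsa-let-7e_st, hsa-let-7f_st, hsa-let-7g_st, hsa-let-7i_st and hsa-miR-98_st. They were chosen by name. Detection meant a mean log2 signal above a floor of 1.31 on the 10 arrays, which 95% of 2392 probe sets for plant miRNAs did not reach. By that rule 8 of the 9 were detected, against 322 (29.8%) of all named human mature probe sets, and miR-98 was not. The cells were HEK-293, a human embryonic kidney line, transfected with a small interfering RNA (siRNA) at a final concentration of 10 nM, and total RNA was read on 1 Affymetrix miRNA 2.0 array per sample. The 5 groups of 2 arrays each were LOC400043 siRNA 1, LOC400043 siRNA 2, LINC00324 siRNA 1, LINC00324 siRNA 2 and a scramble siRNA. All groups share the cell line and the transfection. LOC400043 and LINC00324 are long noncoding RNAs, and the series asks whether such RNAs act as sponges, that is, bind miRNAs and change what those miRNAs can do.

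The let-7 miRNAs are among the most conserved small RNAs of animals. They load into Argonaute proteins and pair through the seed at their 5′ end with messenger RNAs, among them those of RAS proteins, HMGA2 and LIN28, which they repress. They are known for their rise as cells differentiate, and LIN28 proteins bind let-7 precursors and block their maturation. HEK-293 is used widely as a transfection host, and its RNA was measured here in bulk, so that fewer cells with a miRNA and less of it per cell cannot be told apart.

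The 9 mature sequences are printed because the family is defined by its seed, while single bases outside the seed separate its members. They come from RefSeq (GRCh38.p14) and all 9 matched by name. Capitals mark the seed, bases 2 to 8.
let-7a-5p: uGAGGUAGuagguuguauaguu
let-7b-5p: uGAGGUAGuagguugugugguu
let-7c-5p: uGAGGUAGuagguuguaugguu
let-7d-5p: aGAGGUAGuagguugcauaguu
let-7e-5p: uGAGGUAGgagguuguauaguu
let-7f-5p: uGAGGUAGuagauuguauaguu
let-7g-5p: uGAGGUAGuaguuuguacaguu
let-7i-5p: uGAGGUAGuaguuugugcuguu
miR-98-5p: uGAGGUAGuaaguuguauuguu

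All 9 are 22 bases long and share the seed GAGGUAG, which no other named human mature probe set on the array holds. Counted from the 5′ end and written with the let-7a base first, let-7c (A19G), let-7e (U9G) and let-7f (G12A) each differ from let-7a by 1 base. let-7b (A17G A19G), let-7d (U1A U16C), let-7g (G12U U18C) and miR-98 (G11A A19U) differ from it by 2, and let-7i (G12U A17G U18C A19U) by 4. Base 12 therefore sets let-7f, let-7g and let-7i apart from the other members. GC content ran from 31.8% in let-7f and miR-98 to 45.5% in let-7b. How far probe sets for targets 1 base apart hybridise to each other's target was not tested, and a signal is not comparable as an abundance between probe sets.

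The 9 mature forms come from 12 loci, given here on GRCh38.p14 with the positions of the mature strand. let-7f is made from MIRLET7F1 at chr9:94176353-94176374 on the plus strand, within the long noncoding gene MIRLET7A1HG, and from MIRLET7F2 at chrX:53557246-53557267 on the minus strand, within HUWE1, which encodes a ubiquitin ligase. MIRLET7A1 at chr9:94175962-94175983 and MIRLET7D at chr9:94178841-94178862 lie beside MIRLET7F1, and the 3 span 2901 bases. MIR98 at chrX:53556299-53556320 lies beside MIRLET7F2, within a span of 969 bases. let-7a is also made from MIRLET7A2 at chr11:122146568-122146589, within MIR100HG, and from MIRLET7A3 at chr22:46112752-46112773, which with MIRLET7B at chr22:46113691-46113712 spans 961 bases of MIRLET7BHG. MIRLET7C lies at chr21:16539838-16539859 within MIR99AHG, and MIRLET7E at chr19:51692793-51692814 within SPACA6. MIRLET7G lies at chr3:52268336-52268357 within WDR82, and MIRLET7I at chr12:62603691-62603712 within MIRLET7IHG. The mature probe sets cannot tell which locus a mature let-7a or let-7f came from.

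The deposited signals stem from 2 normalization runs, which share the same 2 scramble arrays. LOC400043 arrays are set against scramble as normalized with them (run 2), and LINC00324 arrays against scramble as normalized in run 1. Both silencing comparisons thus share their control arrays. Replicate arrays correlated over the 322 detected probe sets with r between 0.973 and 0.988, and 2 arrays per group limit the precision. The labels call them biological replicates but name no separate cultures, so p-values measure the spread between these arrays. The median signal of detected probe sets was 3.45 and 3.77 on the LINC00324 siRNA 2 arrays, and 4.11 to 4.40 on the other 8. Of 7 miRNAs listed for HEK-293, among them miR-10a, miR-196a and miR-17, all were detected. The markers of liver (0 of 1), muscle (0 of 4), blood (0 of 4) and neurons (0 of 2) were not, while 1 of 5 for epithelium (miR-200c) and 1 of 3 for endothelium or mesenchyme (miR-126) were. Neither long noncoding RNA is measured on the array, so the extent of silencing is unknown.

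let-7f fell after LOC400043 silencing, and no other member passed the test. The log2 signal of let-7f was 2.16 and 2.23 with LOC400043 siRNA 1 and 1.34 and 2.59 with LOC400043 siRNA 2, against 5.02 and 4.80 with scramble. All 4 silenced arrays lay more than 2 log2 units below both scramble arrays, and the groups did not overlap. The difference was -2.83 (SE 0.31), a 7.11-fold lower signal, with a 95% interval of -3.57 to -2.09 and an adjusted p of 0.0146 by limma over all 322 detected probe sets. It was the lowest difference of the 322. With 1 of 8 tested members lower at an adjusted p under 0.05, the share over all tested probe sets was 0.932% (3 of 322), or 1.55% (5 of 322) in either direction. The authors' deposited table gives -2.83 for let-7f with an unadjusted p of 2e-05.

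The call of let-7f rests on few arrays. Without scramble replicate 1 its adjusted p was 0.139, without scramble replicate 2 it was 0.0790, and without LOC400043 siRNA 1 replicate 2 it was 0.0704, with limma in each case. The difference itself stayed between -3.14 and -2.52 whichever array was left out. Without LOC400043 siRNA 2 replicate 1, whose signal of 1.34 was the lowest, the difference was -2.52 and the adjusted p 0.000599.

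let-7g and let-7i, which carry G12U, had the next lowest differences with let-7b. let-7g had log2 signals of 4.43 and 4.30 with LOC400043 siRNA 1 and 4.14 and 4.01 with LOC400043 siRNA 2, against 5.51 and 5.37 with scramble. The groups did not overlap, and the difference of -1.22 (SE 0.28) had an adjusted p of 0.0587. Fitted within its own run it passed (adjusted p 0.0431), as it did when limma's moderation was robust and followed a variance trend (adjusted p 0.0355). let-7i had 4.46 and 4.19 with LOC400043 siRNA 1 and 3.69 and 4.10 with LOC400043 siRNA 2, against 5.13 and 4.99 with scramble. Its groups were also apart, with a difference of -0.95 (SE 0.27, adjusted p 0.0947). let-7b had 2.77 and 1.99 with LOC400043 siRNA 1 and 2.83 and 3.32 with LOC400043 siRNA 2, against 3.97 and 3.39 with scramble. Its arrays did not overlap with scramble, but the SD of the siRNA 1 arrays was 0.55, and the difference of -0.95 (SE 0.54) had an adjusted p of 0.352.

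The members with higher scramble signals differed less from scramble. let-7a had 7.62 and 7.40 with LOC400043 siRNA 1 and 7.43 and 7.84 with LOC400043 siRNA 2, against 8.12 and 8.09 with scramble. All 4 silenced arrays were lower, by -0.53 on average (SE 0.16, adjusted p 0.108). Robust moderation along a variance trend brought it past the threshold (adjusted p 0.0209), while the difference was -0.27 with centred arrays (adjusted p 0.540) and -0.21 without the GC trend (adjusted p 0.485). let-7d had 5.85 and 5.79 with LOC400043 siRNA 1 and 5.38 and 5.82 with LOC400043 siRNA 2, against 6.29 and 5.91 with scramble, a difference of -0.39 (SE 0.17, adjusted p 0.230). let-7c and let-7e overlapped with scramble. let-7c had 6.14, 5.91, 6.14 and 5.86 over the 4 silenced arrays, against 6.33 and 5.92 with scramble, a difference of -0.11 (SE 0.23, adjusted p 0.785) that kept its sign in 14 of 19 alternatives. let-7e had 7.52, 7.66, 7.78 and 7.48 on the silenced arrays, against 7.64 and 7.46 with scramble, and its difference was 0.06 (SE 0.14, adjusted p 0.825).

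**Figure D1:**
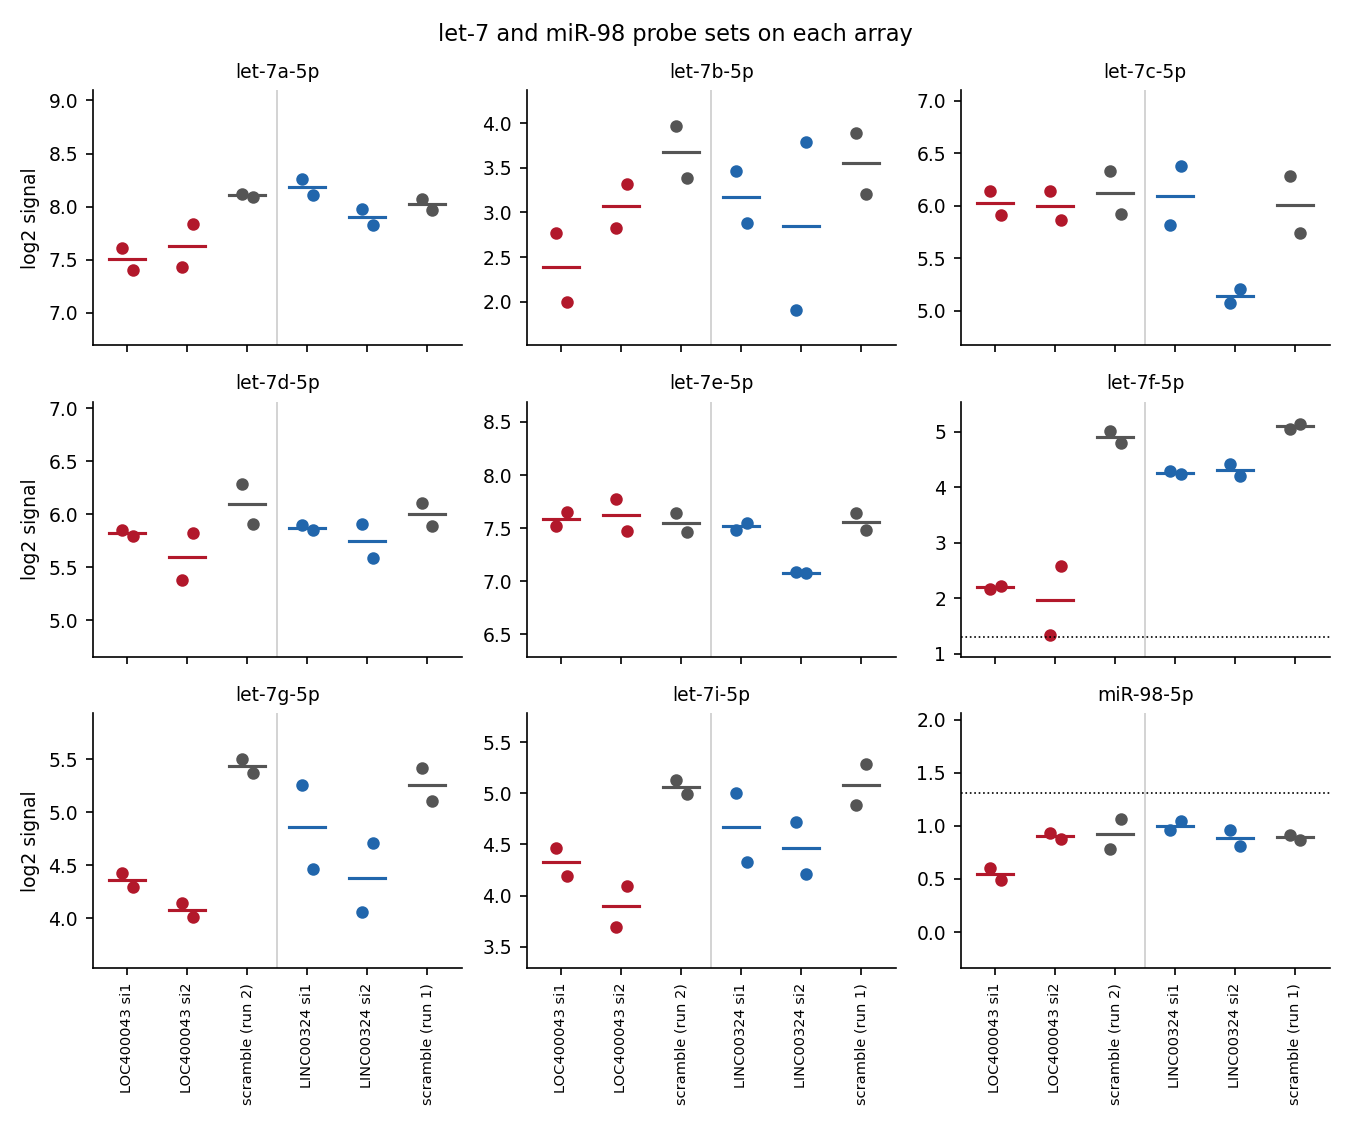
Log2 signal of each of the 9 probe sets on each array, with siRNA groups on the horizontal axis; points are arrays, short lines group means, the grey vertical line divides the 2 normalization runs and the dotted line is the detection floor of 1.31. The 4 LOC400043 arrays of let-7f sit between 1.34 and 2.59, all below the scramble arrays at 4.80 and 5.02, and miR-98 lies below the floor on every array.

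Counted over the family, 7 of 8 detected members had a difference below 0, against 62.7% of all 322 tested. All 4 silenced arrays lay below both scramble arrays for 6 of 8 members (let-7a, let-7b, let-7d, let-7f, let-7g and let-7i), against 23% (74 of 322). At an unadjusted p under 0.05, 4 of 8 were lower, against 16.8%. The median difference of the 8 members was -0.74, and that of the 314 other detected probe sets -0.13. The members' median was -0.47 with centred arrays, where that of all 322 was 0.13. It was -0.45 once the trend on GC content was removed, where that of all 322 was -0.11. These counts describe the family and are no test of it, since its members share sequence and arrays.

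**Figure D2:**
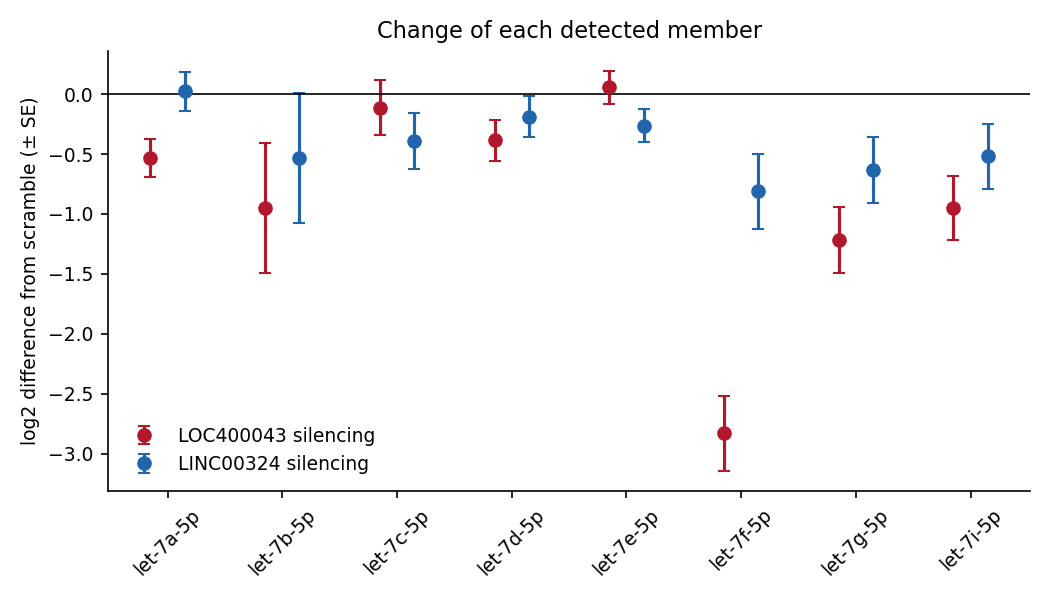
Log2 difference from scramble with its standard error for each detected member under LOC400043 silencing (red) and LINC00324 silencing (blue), 4 silenced arrays against the same 2 scramble arrays. let-7f stands at -2.83 under LOC400043 silencing, and the other red points lie between -1.22 and 0.06.

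Signal level moved with the size of the difference. Among members with a mean scramble signal of 3 to 6 (let-7b, let-7f, let-7g and let-7i), LOC400043 differences ran from -2.83 to -0.95. The 97 other probe sets in that range had a median of -0.31, with 10th and 90th percentiles of -1.19 and 0.68. let-7b and let-7i lay within those percentiles. Among those of 6 to 9 (let-7a, let-7c, let-7d and let-7e), they ran from -0.53 to 0.06. The 71 others there had a median of -0.09 and percentiles of -0.55 and 0.45, which held all of these members. All 8 members have a GC content of 30% to 50%, where the 136 other probe sets had a median of -0.28 and percentiles of -1.05 and 0.22. Removing each array's trend on GC content left let-7f at -2.42 and its adjusted p at 0.00893. By sequence, the 3 members with G12A or G12U had differences of -2.83, -1.22 and -0.95, and the 5 with G at base 12 had -0.95 to 0.06. That grouping was seen after the values and was not tested.

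**Figure D3:**
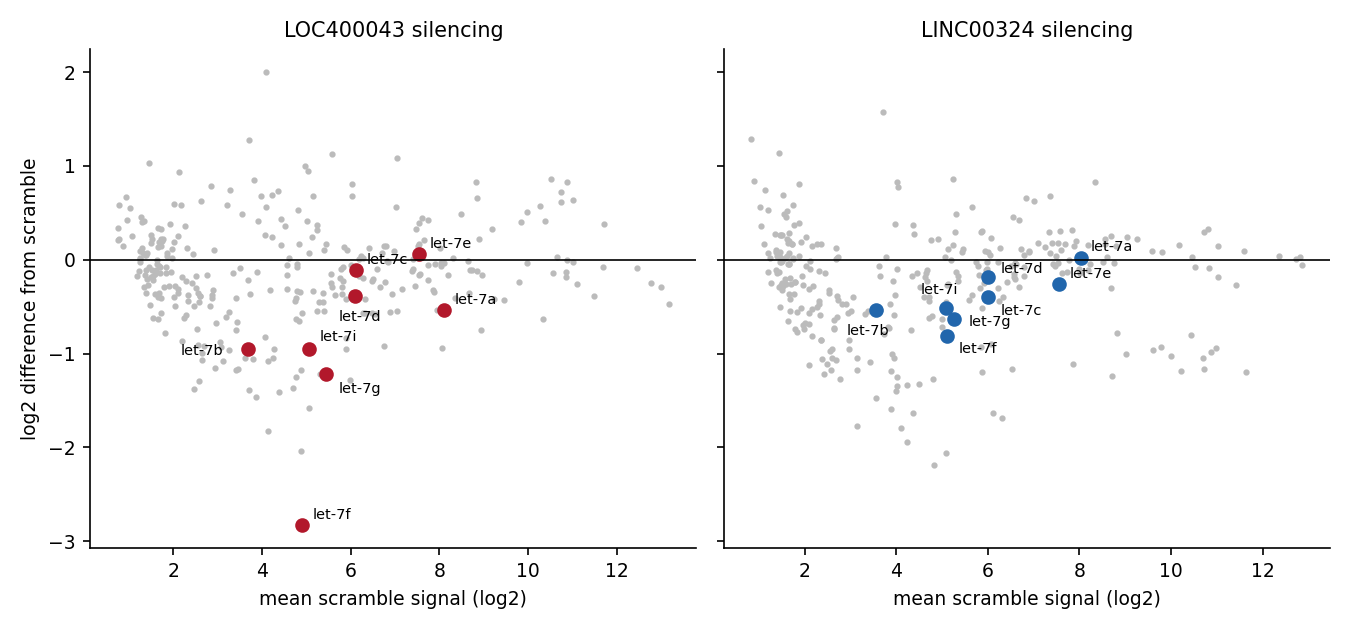
Log2 difference from scramble against the mean scramble log2 signal of the same run for the 322 detected probe sets (grey) and the 8 let-7 members (coloured and named), LOC400043 silencing on the left and LINC00324 silencing on the right. let-7f is the lowest point of the left panel at -2.83, while the members of the right panel lie between -0.81 and 0.02.

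The summed signal of the 7 HEK-293 miRNAs was 62.6 to 64.0 log2 units on the LOC400043 arrays and 64.6 to 67.9 on the LINC00324 arrays, against 65.3 to 65.6 on the scramble arrays. That of the 3 markers of endothelium or mesenchyme was 4.93 to 5.74 and 5.22 to 6.57 on those arrays, against 6.19 to 6.25 on the scramble arrays. miR-143 and miR-145 were below the floor, and miR-126 was the detected one. The part of either in the let-7 differences was not tested.

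The array also carries probe sets named for let-7 of other animals. The files give no sequence for them, so they were matched by name alone, and they share arrays, and may share target molecules, with the human set. For LOC400043 they can only be set against scramble across runs. Of 16 let-7f probe sets of other species, 15 were above the floor. Of these, 15 of 15 were lower on all 4 LOC400043 arrays than on both scramble arrays. No share over all probe sets was taken across runs, and sets read on the same arrays are no replicates. Their differences had a median of -2.05 and ran from -3.16 to -1.39, while the human set stood at -3.02 on the same scale, with 1 of the 15 lower still. On single arrays their median was 3.10 and 2.50 with LOC400043 siRNA 1 and 2.97 and 3.42 with LOC400043 siRNA 2, against 5.07 and 4.83 with scramble. Their spread was wider on the silenced arrays of both targets. The SD was 0.62 to 0.88 on the LOC400043 arrays and 0.49 to 1.02 on the LINC00324 arrays, against 0.22 and 0.28 with scramble.

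**Figure D4:**
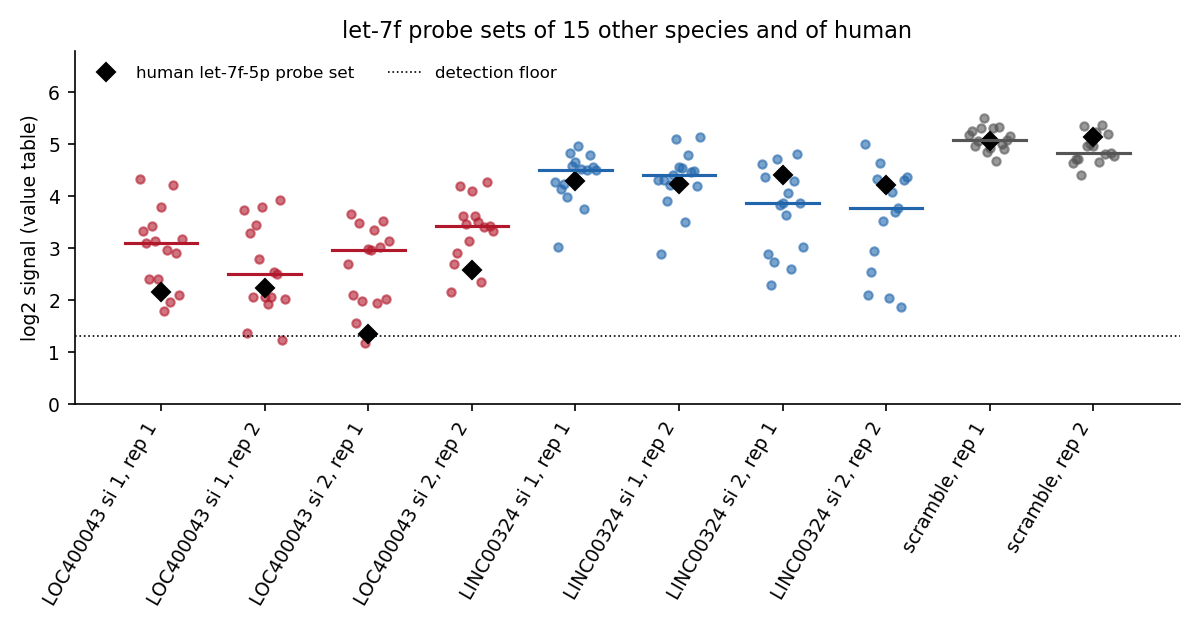
Log2 signals in the value table of the 15 detected let-7f probe sets of other species (circles, with their median as a line) and of the human set (diamonds) on each of the 10 arrays; the dotted line is the floor of 1.31. The LOC400043 medians lie between 2.50 and 3.42 and the scramble medians at 5.07 and 4.83.

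Sets named for the other members were also read on the LOC400043 arrays. For let-7g, 12 of 12 detected sets were lower with LOC400043 siRNAs, with a median of -1.10 (-1.64 to -0.69), and for let-7i 13 of 13, with a median of -0.80. These counts include sets of low signal, with scramble means down to 1.93 for let-7g and 1.81 for let-7i, against medians of 5.58 and 4.69 over the sets, and whether those read the same RNA is unknown. The 14 let-7b sets ranged from -2.42 to 0.32 around a median of -0.63, and 11 were lower. let-7a sets had a median of -0.39 (16 of 16 lower), let-7d sets -0.34 (10 of 10) and let-7c sets -0.24 (13 of 13). For let-7e all 9 detected sets were higher, by 0.08 to 0.25. On this across-run scale the human let-7c set stood at 0.0048, and 13 of 13 let-7c sets of other species were below that value. The human sets stood at -1.04 for let-7g, -0.97 for let-7i, -0.82 for let-7b, -0.45 for let-7a, -0.29 for let-7d and 0.05 for let-7e. All 4 LOC400043 arrays were below both scramble arrays for 16 of 16 let-7a, 10 of 12 let-7g and 6 of 10 let-7d sets. That held for 5 of 13 let-7i, 4 of 14 let-7b, 3 of 13 let-7c and 0 of 9 let-7e sets. For these counts too, no share over all probe sets was taken across runs. None of the 14 miR-98 sets of other species was above the floor.

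**Figure D5:**
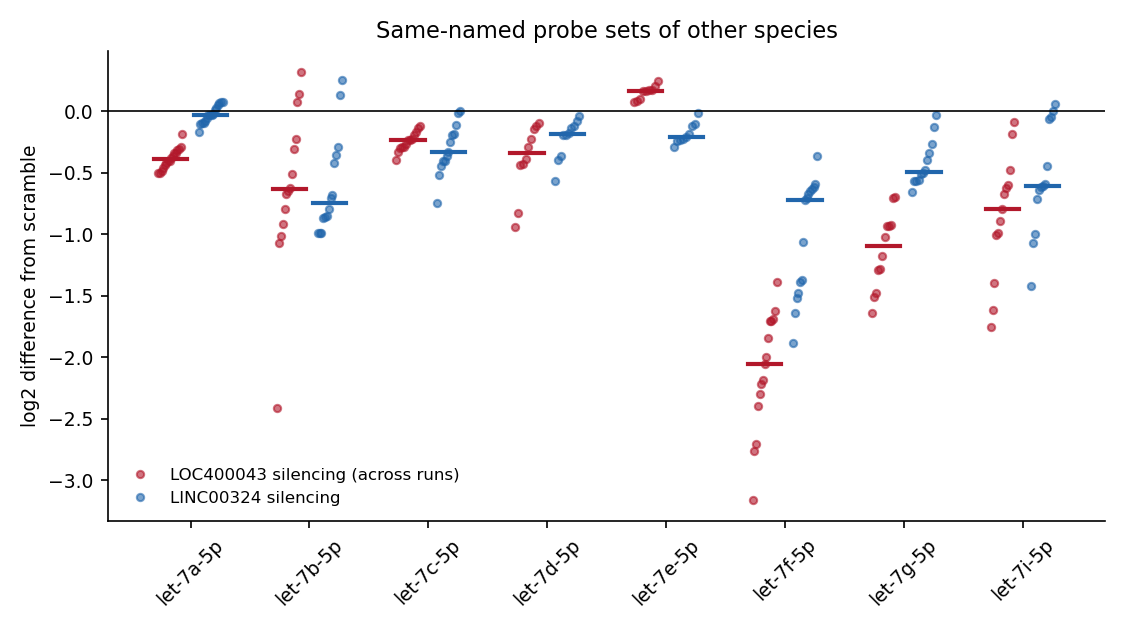
Log2 difference from scramble of each detected same-named probe set of other species, by member, under LOC400043 silencing (red, across runs) and LINC00324 silencing (blue); lines are medians. let-7f sets have medians of -2.05 under LOC400043 silencing and -0.72 under LINC00324 silencing, and let-7e sets lie at 0.08 to 0.25 under LOC400043 silencing.

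After LINC00324 silencing no member had an adjusted p under 0.05 (0 of 8), against 9.32% of all tested probe sets (30 of 322). Of those 30, 29 were lower, or 9.01% of all tested. At an unadjusted p under 0.05, 1 of 8 members passed, against 23% (74 of 322). let-7f again had the lowest difference in the family. Its log2 signal was 4.28 and 4.23 with LINC00324 siRNA 1 and 4.41 and 4.21 with LINC00324 siRNA 2, against 5.05 and 5.14 with scramble. All 4 silenced arrays were below both scramble arrays, which held for 1 of 8 members and 20.2% of all tested. The difference was -0.81 (SE 0.31, adjusted p 0.181), and it ranked 53 of 322 from the lowest. That SE pools the spread of all 5 groups. The SD of let-7f was 0.88 with LOC400043 siRNA 2, a group outside this comparison. It was 0.04 with LINC00324 siRNA 1, 0.15 with LINC00324 siRNA 2 and 0.06 with scramble. Fitted within its own run, the let-7f difference passed (adjusted p 0.0413). Removing the GC trend gave -1.15, which passed as well (adjusted p 0.0439), as did the fits without either LOC400043 siRNA 2 replicate 1 or replicate 2 (adjusted p 0.0145 each). Centring the arrays on their median left -0.39 (adjusted p 0.444), quantile normalization left -0.61 (adjusted p 0.372), and without scramble replicate 1 the adjusted p was 0.476. The authors' deposited table gives -0.81 with an unadjusted p of 0.00016.

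For the other 7 members the LINC00324 and scramble arrays overlapped. let-7g had 5.26 and 4.47 with LINC00324 siRNA 1 and 4.06 and 4.71 with LINC00324 siRNA 2, against 5.41 and 5.11 with scramble, and its difference was -0.64 (SE 0.28, adjusted p 0.233). let-7i had 5.00, 4.33, 4.72 and 4.21 on the silenced arrays, against 4.88 and 5.28 with scramble, a difference of -0.52 (SE 0.27, adjusted p 0.328). let-7b had 3.47 and 2.88 with LINC00324 siRNA 1 and 1.91 and 3.79 with LINC00324 siRNA 2, against 3.89 and 3.20 with scramble, and the 2 siRNA 2 arrays were the farthest apart of any member in any group (SD 1.33). Its difference was -0.54 (SE 0.54, adjusted p 0.645). let-7a was close to scramble, with 8.26, 8.11, 7.98 and 7.83 on the silenced arrays, against 8.07 and 7.97 with scramble, a difference of 0.02 (SE 0.16, adjusted p 0.954). let-7d had 5.90, 5.85, 5.91 and 5.59 on the silenced arrays, against 6.11 and 5.89 with scramble, a difference of -0.19 (SE 0.17, adjusted p 0.608). The differences of let-7c and let-7e were -0.39 (SE 0.23, adjusted p 0.391) and -0.26 (SE 0.14, adjusted p 0.338). With arrays centred on the median, which moved the median of all tested probe sets by 0.42, the differences of let-7c, let-7d and let-7e turned to 0.03, 0.23 and 0.16. The median of the 8 members was -0.46, and that of the 314 others -0.13. The members' median was -0.24 after quantile normalization and -0.038 with centred arrays, where the medians of all 322 were 0.0025 and 0.28. With the GC trend removed the members' median was -0.64, lower than the -0.45 under LOC400043 silencing, and that of all 322 was -0.20. Of the 15 let-7f sets of other species, 15 were lower with LINC00324 siRNAs, with a median of -0.72 (-1.88 to -0.36). All 4 arrays were below both scramble arrays for 12 of them. That held for 5 of 13 let-7i, 4 of 12 let-7g, 2 of 10 let-7d and 1 of 14 let-7b sets. It held for 0 of the let-7a, let-7c and let-7e sets. No share over all probe sets of other species was taken beside these counts.

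The difference between the silencing effects was tested directly, each against scramble of its own run. It was lower for LOC400043 in 2 of 8 members, against 9.32% of all tested probe sets (23.9% in either direction, 77 of 322). let-7f stood at -2.02 (SE 0.26, 95% interval -2.63 to -1.41, adjusted p 0.00182), a 4.05-fold lower signal after LOC400043 silencing than after LINC00324 silencing. It passed in 17 of 17 alternatives, from -2.33 to -1.27. let-7a stood at -0.56 (SE 0.13, adjusted p 0.0214), but at 0.05 (adjusted p 0.817) once the GC trend was taken out, and its adjusted p lay between 0.0503 and 0.0732 when any of 5 single arrays was left out. let-7g differed by -0.58 (SE 0.22, adjusted p 0.115) and let-7e by 0.32 (SE 0.11, adjusted p 0.0892). The let-7e difference passed in 4 of 18 alternatives, among them quantile normalization at 0.36 (adjusted p 0.0325) and removal of the GC trend at 0.78 (adjusted p 0.0141). let-7b, let-7c, let-7d and let-7i had adjusted p-values from 0.221 to 0.581. The median of the 8 members was -0.42, and that of the 314 others -0.06. With the GC trend removed the members' median was 0.036, and that of all 322 was 0.0365. These values rest on the match of the runs through the scramble arrays, whose own error the SE leaves out.

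Between the siRNAs of a target, no member passed (0 of 8 for either target). LOC400043 siRNA 1 minus siRNA 2 passed for 1.55% of all tested probe sets (5 of 322). At an unadjusted p under 0.05, 0 of 8 members passed, against 14% (45 of 322). The let-7f difference between them was 0.23, with a 95% interval of -0.63 to 1.09. Each LOC400043 siRNA alone gave lower let-7f than scramble, with means of 2.19 ± 0.05 for siRNA 1 and 1.96 ± 0.88 for siRNA 2, against 4.91 ± 0.15 for scramble (SD, n = 2 each). LINC00324 siRNA 1 minus siRNA 2 passed for 2.17% of all tested probe sets (7 of 322), and 2 of 8 members had an unadjusted p under 0.05, against 14.9% (48 of 322). let-7c had 5.81 and 6.38 with LINC00324 siRNA 1 and 5.07 and 5.21 with siRNA 2, against 6.28 and 5.74 with scramble. The let-7c difference between the siRNAs was 0.96 (95% interval 0.33 to 1.59, adjusted p 0.137). let-7e had 7.48 and 7.55 with siRNA 1 and 7.09 and 7.08 with siRNA 2, against 7.64 and 7.48 with scramble, a difference of 0.44 between siRNAs (adjusted p 0.262). With arrays centred on the median, the let-7c and let-7e differences between the siRNAs were 0.43 and -0.09. The same centring took the median of all 322 from 0.05 to -0.48. The LINC00324 siRNA 2 arrays had the lower median signal, and its part in these differences was not tested.

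miR-98 lay below the floor on 10 of 10 arrays, with a mean of 0.85 and a highest value of 1.05, and was not tested. The opposite strands of the let-7 hairpins, called passenger arms, are usually degraded after Argonaute loading. Of their 10 probe sets 0 had a mean above the floor, with means of 0.75 to 1.07 and 6 of 100 single values above it. Of 20 hairpin probe sets of let-7 and miR-98 precursors 0 had a mean above the floor, with 19 of 200 single values above it. These data therefore give no level of let-7 precursors to set beside the mature strands.

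Some let-7 loci lie in a host transcript with miRNAs of the miR-99, miR-100 and miR-125 families, which are processed from the same primary RNA: miR-99a and miR-125b with let-7c, miR-99b and miR-125a with let-7e, and miR-100 and miR-125b with let-7a. None of these 5 passed in any of the 5 comparisons by limma, and at an unadjusted p under 0.05 miR-99a and miR-99b did, both between the LINC00324 siRNAs. With LOC400043 silencing their differences ran from -0.62 (miR-100, adjusted p 0.347) to 0.24 (miR-125b, adjusted p 0.741), and with LINC00324 silencing from -0.12 to 0.12. miR-100 was near the floor of 1.31, with 1.03, 0.72, 1.08 and 0.85 on the LOC400043 arrays, against 1.35 and 1.73 with scramble of the same run. Between the LINC00324 siRNAs miR-99a differed by 0.78 (adjusted p 0.104), while let-7c, from the same host transcript MIR99AHG, differed by 0.96.

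The pattern of let-7f across the arrays was compared with that of all other detected probe sets by Pearson's r over 10 arrays, with LOC400043 arrays brought to run 1. The 5 closest outside the family were miR-18b-5p (0.94), miR-17-5p (0.94), miR-92b-3p (0.90), miR-20a-5p (0.88) and miR-422a (0.88). Within the family r was 0.87 for let-7a, 0.80 for let-7i, 0.78 for let-7d, 0.76 for let-7g, 0.47 for let-7b, -0.14 for let-7c and -0.46 for let-7e. These values are a description over arrays that fall into siRNA groups and share their scaling. Of the 5, miR-18b-5p had the lowest LOC400043 difference, at -0.75 (SE 0.14, adjusted p 0.0574). Closest to the mean of the 8 members were miR-17-5p (0.88), miR-18b-5p (0.87), miR-126-3p (0.83), miR-30d-5p (0.82) and miR-148a-3p (0.82). miR-126-3p and miR-148a-3p had LOC400043 differences of -1.17 (adjusted p 0.0605) and -1.22 (adjusted p 0.0947). All these miRNAs were picked for their r over the same 10 arrays. Their lower signals after LOC400043 silencing follow in part from that choice and are no separate result.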

How the data were processed

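Affymetrix miRNA 2.0 arrays of total RNA from HEK-293 cells were analysed as deposited, with groups taken from the siRNA and cell labels. A value table by the authors holds log2 signals, already normalized, of 20706 probe sets on 10 arrays. Their table for each target has 1130 rows of human mature miRNAs with log2 signals, log2 differences and, per the file headers, an unadjusted p-value. The submitters' processing notes name limma without a version, and no normalization method is given in the sources used here.

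The scramble values of the LOC400043 table differ from those of the value table (median offset 0.07, SD 0.25). LOC400043 arrays were therefore shifted per probe set by the difference of the scramble means. Of its columns, 4 match no label and were not used. limma 3.58.1 in R 4.3.3 fitted 1 mean per group (5 residual and 1.92 prior degrees of freedom, median SD 0.30), with contrasts, eBayes and Benjamini-Hochberg adjustment over 322 detected probe sets at 0.05. The scripts were tested on simulated data. Alternatives changed the normalization, GC trend, detection floor, runs, variance moderation, replicate block and arrays. The members and lists were chosen with earlier results of these data known. Besides the members, the miRNAs named are 5 of shared host transcripts and the 5 closest in pattern to let-7f and to the family mean. Python 3.11.15 with matplotlib 3.10.9 drew the figures.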

Additional observations from a re-analysis of the deposited data

Results flagged for a closer look

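The silencing effects on let-7f and let-7a differed between the targets by the direct test. The LOC400043 effect minus the LINC00324 effect was -2.02 for let-7f (adjusted p 0.00182 by limma) and -0.56 for let-7a (adjusted p 0.0214), with both effects set against the same 2 scramble arrays. The let-7a difference passed in 12 of 18 alternatives, and was 0.046 (adjusted p 0.817) without the GC trend. For let-7a, LINC00324 siRNA 1 arrays lay above the scramble mean and both siRNA 2 arrays below it, with means of 0.16 and -0.12 against scramble. The difference of 0.28 between the siRNAs did not pass (adjusted p 0.537).

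Outside the human probe sets, the set named let-7-1-as of an amphioxus stood above scramble on all 4 LINC00324 arrays. Its log2 signal averaged 3.08 (2.86 to 3.36) on the LINC00324 arrays, against 2.02 and 2.63 with scramble, and it was 1 of 287 let-7 and miR-98 probe sets searched. This difference was not tested.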

How the results depend on the processing

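The let-7f difference of LOC400043 silencing kept its sign in 18 of 18 alternatives (-3.14 to -2.42) and its call in 15. The members lower after LOC400043 silencing numbered 2 with the stricter floor of 4.50 (let-7a and let-7g, with let-7f below that floor and 5 members tested), 2 within the target's own run (let-7f and let-7g) and 3 with a variance trend and robust moderation (let-7a, let-7f and let-7g), and 0 to 1 when an array was left out. It was 0 without scramble replicate 1, scramble replicate 2 or LOC400043 siRNA 1 replicate 2, where limma called 0 of 322 probe sets (47, 53 and 69 had an unadjusted p under 0.05). For LINC00324 silencing 1 member (let-7f) passed with the GC trend removed and within its own run, and 0 to 1 when an array was left out. For the difference of the effects 4 passed after quantile normalization (let-7a, let-7e, let-7f and let-7g), and 1 to 3 when an array was left out. Between siRNAs 0 members passed when any array was left out.

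Over all tested probe sets, LOC400043 silencing called 12 with arrays centred on the median (10 higher and 2 lower, against 2 higher and 3 lower as deposited), 3 with the GC trend removed, 39 with the stricter floor, 9 within its own run, 21 without the bridge (13 higher and 8 lower), 40 with the variance trend, and 0 to 8 when an array was left out. Quantile normalization gave 4 higher and 1 lower. LINC00324 silencing called 0 with arrays centred on the median (91 at an unadjusted p under 0.05), 19 within its own run and 0 to 32 when an array was left out (0 without scramble replicate 1, with 50 unadjusted, and 4 without scramble replicate 2). After quantile normalization 5 were higher and 18 lower, against 1 and 29 as deposited, and with the GC trend removed 3 and 18. LOC400043 siRNA 1 minus siRNA 2 called 3 with arrays centred on the median (1 higher), 3 with the GC trend removed, 9 with the stricter floor, 2 within its own run, 18 with the variance trend and 0 to 7 when an array was left out. LINC00324 siRNA 1 minus siRNA 2 called 2 after quantile normalization, 3 with arrays centred on the median (1 higher), 0 within its own run (44 unadjusted) and 1 to 3 when an array was left out. The difference of the effects called 51 to 73 when an array was left out, and had 46 higher and 42 lower after quantile normalization and 40 and 17 with the GC trend removed, against 47 and 30.

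Some small differences turned. Under LOC400043 silencing let-7c was 0.0001 after quantile normalization, 0.16 with centred arrays, 0.14 with the GC trend removed and 0.0048 without the bridge. Under LINC00324 silencing centred arrays gave 0.026 for let-7c, 0.23 for let-7d and 0.16 for let-7e, and the GC trend gave -0.25 for let-7a. Between LOC400043 siRNAs let-7c was -0.027 with centred arrays, and let-7a and let-7e were 0.085 and 0.12 with the GC trend removed. Between LINC00324 siRNAs centred arrays gave -0.25, -0.21, -0.41, -0.093, -0.050 and -0.32 for let-7a, let-7b, let-7d, let-7e, let-7g and let-7i, and the GC trend -0.023 for let-7d. In the difference of the effects the GC trend gave 0.046, 0.26, 0.020 and 0.026 for let-7a, let-7d, let-7g and let-7i. With an array left out, let-7c and let-7e ran from -0.31 to 0.090 and -0.030 to 0.14 under LOC400043 silencing, and let-7a from -0.027 to 0.072 under LINC00324 silencing. Between LOC400043 siRNAs let-7a, let-7c, let-7e and let-7f then ran from -0.33 to 0.078, -0.12 to 0.17, -0.19 to 0.11 and -0.39 to 0.85. Between LINC00324 siRNAs let-7b, let-7d, let-7f and let-7i ran from -0.62 to 1.27, -0.037 to 0.28, -0.16 to 0.051 and -0.13 to 0.54, and let-7b in the difference of the effects from -0.88 to 0.059. Centring shifts all probe sets of an array alike. Between LINC00324 siRNAs it moved the median of all tested probe sets by -0.53, from 0.05 to -0.48. It moved that median by 0.27 under LOC400043 silencing, 0.42 under LINC00324 silencing and -0.052 between LOC400043 siRNAs. For the turns outside centring, the cause was not tested.

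The replicate block left 1 member called for LOC400043 silencing and 0 for LINC00324 silencing. Over all tested probe sets it called 2 between LOC400043 siRNAs and 1 between LINC00324 siRNAs. The labels give only a number, and deviations of same-numbered arrays correlated at -0.14 to 0.16. Whether same-numbered arrays share more than that number is not known. With 2 arrays per group, a signal near the floor such as let-7f after LOC400043 silencing carries little precision.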
